A study of Homo sapiens with 12 samples.

Results

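The set described here holds 9 of the 22379 genes in the table, grouped as genes of the early embryo: H3Y1, TAF11L12, TRIM43, TRIM43B, TRIM48, TRIM49, TRIM51, PRAMEF12 and RFPL2. They were selected on their values in the untreated libraries, where they were higher in EXOSC5-KO than in the other cells. The untreated values are therefore a description and carry no test. The tests used the libraries treated with triptolide, which did not enter the choice. The treated cells were of the same genotypes and can hold RNA made before the drug. These tests are thus not independent of the choice. Polyadenylated RNA had been sequenced from U2OS, a human osteosarcoma line, in 12 libraries that made up 6 groups of 2. All cells had received Cas9 and a guide RNA from one transiently transfected plasmid, had been selected with puromycin and were kept as pools rather than clones, so each pool may hold unedited cells. The guide was nontargeting (NONT, labelled wild type), directed at NUP93, a nuclear pore protein (NUP93-KO), or directed at EXOSC5, a subunit of the RNA exosome (EXOSC5-KO). Each of the 3 genotypes received DMSO (called untreated) or 1 μM triptolide for 8 h.

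The first divisions of the human embryo run on maternal RNA, and a small group of genes is switched on when the embryo begins to transcribe its own genome. The double-homeobox factor DUX4 is a known activator of many of them, including the histone variant H3.Y, the TRIM43, TRIM48, TRIM49 and TRIM51 ubiquitin ligase family, the PRAMEF and RFPL families and ZSCAN4, and they are silent or nearly so in most adult cells. The RNA exosome is a complex that degrades RNA from its 3′ end, in the nucleus and in the cytoplasm. Triptolide blocks the XPB helicase of TFIIH and thereby new transcription by RNA polymerase II, so that what is left of a transcript after treatment depends on how fast it decays. In the study, cells without NUP93 or EXOSC5 served to separate loss of RNA polymerase II from loss of mRNA, and the question for the set was whether its raised transcripts decayed once transcription stopped.

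The promoters are shown first, because several of the genes share one motif close to their start. Of the 9 genes, 7 were matched to a promoter window from RefSeq (GRCh38.p14, 250 bases before to 50 after the transcript start). TRIM43 and TRIM43B were not matched. The motif searched was that of double-homeobox factors, the letters TAA and AATCA separated by any 3 bases, on both strands. It lay in the windows of 4 of the 7 genes, against 303 of 27305 genes (1.11%) with a window in the RefSeq table. The 250 bases before the start of these 4 genes are printed 5′ to 3′ on the strand of the gene, with the matches in capitals. They are chr5:17655850-17656099 (minus strand) for H3Y1, chr5:17610142-17610391 (plus) for TAF11L12, chr11:55261905-55262154 (plus) for TRIM48 and chr11:55883047-55883296 (plus) for TRIM51.
H3Y1: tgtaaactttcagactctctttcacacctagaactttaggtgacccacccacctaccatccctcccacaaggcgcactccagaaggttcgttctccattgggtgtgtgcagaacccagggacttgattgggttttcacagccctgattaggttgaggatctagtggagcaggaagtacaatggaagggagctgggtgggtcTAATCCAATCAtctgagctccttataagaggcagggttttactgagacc
TAF11L12: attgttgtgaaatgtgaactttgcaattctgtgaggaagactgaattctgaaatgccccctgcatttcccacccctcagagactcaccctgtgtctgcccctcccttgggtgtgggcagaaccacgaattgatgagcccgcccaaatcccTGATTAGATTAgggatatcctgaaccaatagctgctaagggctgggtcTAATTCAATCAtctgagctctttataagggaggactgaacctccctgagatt
TRIM48: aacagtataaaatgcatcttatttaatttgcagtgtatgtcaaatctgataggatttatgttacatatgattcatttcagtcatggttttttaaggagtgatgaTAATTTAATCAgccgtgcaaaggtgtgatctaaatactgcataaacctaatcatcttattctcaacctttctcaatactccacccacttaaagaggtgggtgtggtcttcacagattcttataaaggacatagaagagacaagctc
TRIM51: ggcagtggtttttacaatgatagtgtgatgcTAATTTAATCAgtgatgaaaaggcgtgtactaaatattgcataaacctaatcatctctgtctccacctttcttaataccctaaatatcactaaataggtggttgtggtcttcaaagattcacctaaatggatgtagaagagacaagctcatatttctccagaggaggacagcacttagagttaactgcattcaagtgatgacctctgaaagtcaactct

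Counted in bases from the start, H3Y1 held its match at −49 to −39, TRIM48 at −146 to −136 and TRIM51 at −219 to −209. TAF11L12 held 1 match at −52 to −42 and another on the opposite strand at −100 to −90. Only 8 of all windows (0.0228%) held 2 or more matches. They included a window of TRIM49D1, 1 of 41 (2.44%) from genes of the same families outside the set. The windows of PRAMEF12, TRIM49 and RFPL2, which had 2 windows, did not hold these letters. Among the genes of the same families that were not in the set, 10 of the 39 with a window held the motif, namely H3Y2, TAF11L11, TRIM49B, TRIM49D1, TRIM49D2, TRIM51G, PRAMEF7, PRAMEF8, RFPL4A and RFPL4AL1. The motif and the signal did not always go together: TRIM49D2 and PRAMEF7 held it and were at 0 in all 12 libraries, while TAF11L13, TAF11L14, TRIM49C and ZSCAN4, whose untreated EXOSC5-KO libraries were above the others, had windows that did not hold these letters. Both sides have limits. Reads shared by copies were divided by the quantification, so the 0 of TRIM49D2 may depend on the split with TRIM49D1. TAF11L13 and TAF11L14 are annotated as single exons of 597 and 594 bases, against 1088 for TAF11L12. Their annotated start, and so the window, may not be where transcription began. Copies within a family share much of their promoter sequence, so these matches are not independent. A match is a description of the letters and not evidence of binding.

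**Figure D1:**
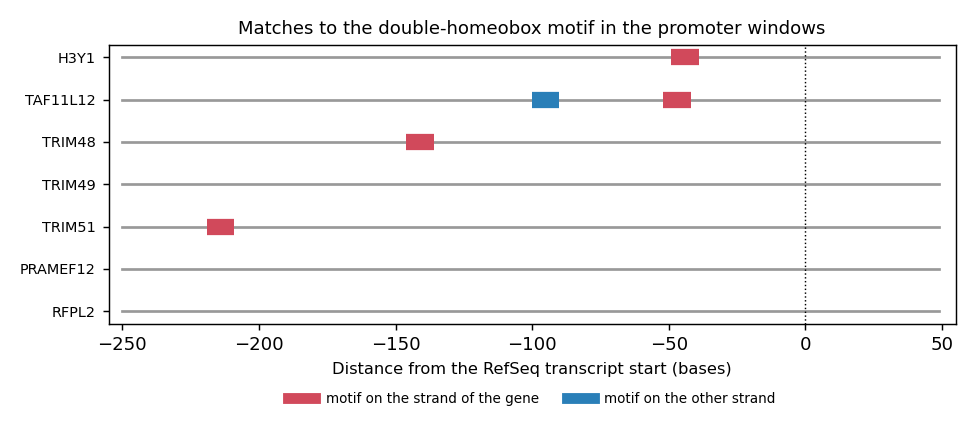
Position of the double-homeobox motif in the promoter windows of the 7 genes with a window, in bases from the RefSeq transcript start (x axis, start at 0). Coloured blocks are matches on the strand of the gene or on the other strand; TAF11L12 held 2 matches and H3Y1, TRIM48 and TRIM51 1 each.

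All values are spike-in-normalised signals: reads per gene divided by a factor estimated on ERCC spike-in RNAs that were added in proportion to cell number. They were not divided by transcript length, so values are compared between libraries and not between genes. Approximate depth was 8.55 M to 11.9 M reads per library, and 1 read was worth 0.489 to 1.76 units of signal. A gene listed at 0 may thus have been present below 3 reads, or 1.47 to 5.27 units. The guide against EXOSC5, gaagttcttaccttgcagga, matched chr19:41397170-41397189 of GRCh38 on the plus strand, with the PAM AGG. EXOSC5 is on the minus strand, and 9 bases of the target lay in its exon 1 and 11 beyond the exon's edge. The EXOSC5 signal was 216 and 148 in untreated EXOSC5-KO against 299 to 481 in the other untreated libraries, and 75.2 and 102 against 208 to 323 under triptolide, so the labels and the signal went together. Of 8 mesenchymal markers, 7 reached 10 in a library and TWIST1 was at 0. None of the 6 germ cell or 5 blood markers reached 10 in any library. Of 5 epithelial markers 4 also reached 10 in a library, so this cutoff did not separate epithelial from mesenchymal markers. The epithelial list summed to 155 and 130 in untreated EXOSC5-KO and to 152 to 225 in the other untreated libraries.

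H3Y1 (ENSG00000269466) encodes H3.Y, a primate-specific variant of histone H3. It is a single-exon gene of 982 bases on the minus strand at chr5:17654868-17655849. Untreated, its signal was 239 and 203 in EXOSC5-KO, 2.85 and 1.76 in NONT, and 8.10 and 4.99 in NUP93-KO. Both EXOSC5-KO libraries were thus far above the other 4. After triptolide it was 97.5 and 76.6 in EXOSC5-KO, 1.80 and 0.487 in NONT, and 2.61 and 1.98 in NUP93-KO. EXOSC5-KO was the highest of the genotypes with and without drug, and the treated EXOSC5-KO libraries lay below the untreated ones. In bulk RNA, more cells with the transcript and more transcript per cell cannot be told apart.

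TAF11L12 (ENSG00000249156) is a member of a family related to TAF11, a subunit of the general transcription factor TFIID. It lies at chr5:17610496-17611583 on the plus strand, also with 1 exon, in the same cluster as H3Y1. These are GENCODE coordinates. The RefSeq start used for the promoter window lies earlier, just after chr5:17610391, and the motif positions of TAF11L12 are counted from there. The cluster, chr5:17490967-17655849, holds 15 genes of the H3Y and TAF11L families in 164883 bases. Untreated, the TAF11L12 signal was 389.9 and 314 in EXOSC5-KO, 3.79 and 17.5 in NONT, and 10.4 and 8.71 in NUP93-KO. After triptolide it was 28.0 and 44.4 in EXOSC5-KO and listed at 0 in all 4 other libraries. Every EXOSC5-KO library was thus above the other libraries of the same treatment, and the treated values were a small part of the untreated ones.

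TRIM43 (ENSG00000144015) and TRIM43B (ENSG00000144010) are close copies that belong to the tripartite motif family of ubiquitin ligases. They lie near each other on chromosome 2, TRIM43B at chr2:95477008-95484754 on the minus strand and TRIM43 at chr2:95592001-95599778 on the plus strand. Untreated TRIM43B was at 32.0 and 62.2 in EXOSC5-KO, 1.90 and 10.53 in NONT, and 3.47 and 9.98 in NUP93-KO. Its treated signal was 12.2 and 13.99 in EXOSC5-KO, 1.203 and 0 in NONT, and 1.74 and 0 in NUP93-KO. The treated EXOSC5-KO libraries were thus just above the highest untreated NONT library and well above the treated ones. TRIM43 was at 24.7 and 14.5 in untreated EXOSC5-KO and at 5.61 and 4.11 after triptolide. In NONT it was listed at 0 in all 4 libraries, and in NUP93-KO it was 3.46 and 0 untreated and 0 and 1.99 treated. Reads that fit both copies were divided between them by the quantification, so the split is less certain than the sum. The pair summed to 56.7 and 76.6 in untreated EXOSC5-KO and to 17.8 and 18.1 in treated EXOSC5-KO.

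TRIM48 (ENSG00000150244), TRIM49 (ENSG00000168930) and TRIM51 (ENSG00000124900) are tripartite motif genes on chromosome 11, at chr11:55262155-55271114 (plus strand), chr11:89797655-89808575 (minus) and chr11:55883297-55891810 (plus). Untreated TRIM48 was at 18.9 and 30.4 in EXOSC5-KO, 0 and 1.76 in NONT, and 8.09 and 4.99 in NUP93-KO. Treated TRIM48 was at 6.55 and 11.5 in EXOSC5-KO, 1.203 and 0.488 in NONT, and 0.872 and 0 in NUP93-KO. TRIM48 and H3Y1 were the only genes of the set for which both untreated NUP93-KO libraries lay above both NONT libraries. Both genes rested on too few reads there for a difference between NUP93-KO and NONT to be read. How many of all genes showed this order was not counted. TRIM49 was at 17.5 and 34.8 in untreated EXOSC5-KO against 0 to 2.22 in the other untreated libraries. After triptolide it was 10.7 and 7.02 in EXOSC5-KO, listed at 0 in NONT, and 3.51 and 0 in NUP93-KO. TRIM51 was at 11.0 and 5.45 in untreated EXOSC5-KO and at 0 in the other 4 untreated libraries. Under triptolide it was 1.76 and 0 in EXOSC5-KO and 2.07 and 0 in NUP93-KO, so for TRIM51 the treated genotypes overlapped.

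PRAMEF12 (ENSG00000116726), of the leucine-rich PRAME family, has 3 exons at chr1:12773738-12777906 on the plus strand. Its signal was 24.7 and 14.4 in untreated EXOSC5-KO, 0 and 1.76 in NONT, and 1.16 and 0 in NUP93-KO. The treated values were 10.3 and 4.94 in EXOSC5-KO, 0 in both NONT libraries, and 0.873 and 0 in NUP93-KO. PRAMEF12 thus stayed above the other genotypes under the drug. RFPL2 (ENSG00000128253), one of the ret finger protein-like genes, lies at chr22:32190435-32205073 on the minus strand and rested on the fewest reads. It was at 3.61 and 4.34 in untreated EXOSC5-KO, or about 2.49 and 3.004 reads, and at 0 in the other 4 untreated libraries. After triptolide it was at 0 in EXOSC5-KO and NONT, and at 3.82 and 1.64 in NUP93-KO. RFPL2 was the only gene of the set that no treated EXOSC5-KO library held. Both untreated EXOSC5-KO libraries were above the 4 others for each of the 9 genes, as the choice of the set requires. Of the 19002 genes above 0 in any library, 12.3% met that condition.

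**Figure D2:**
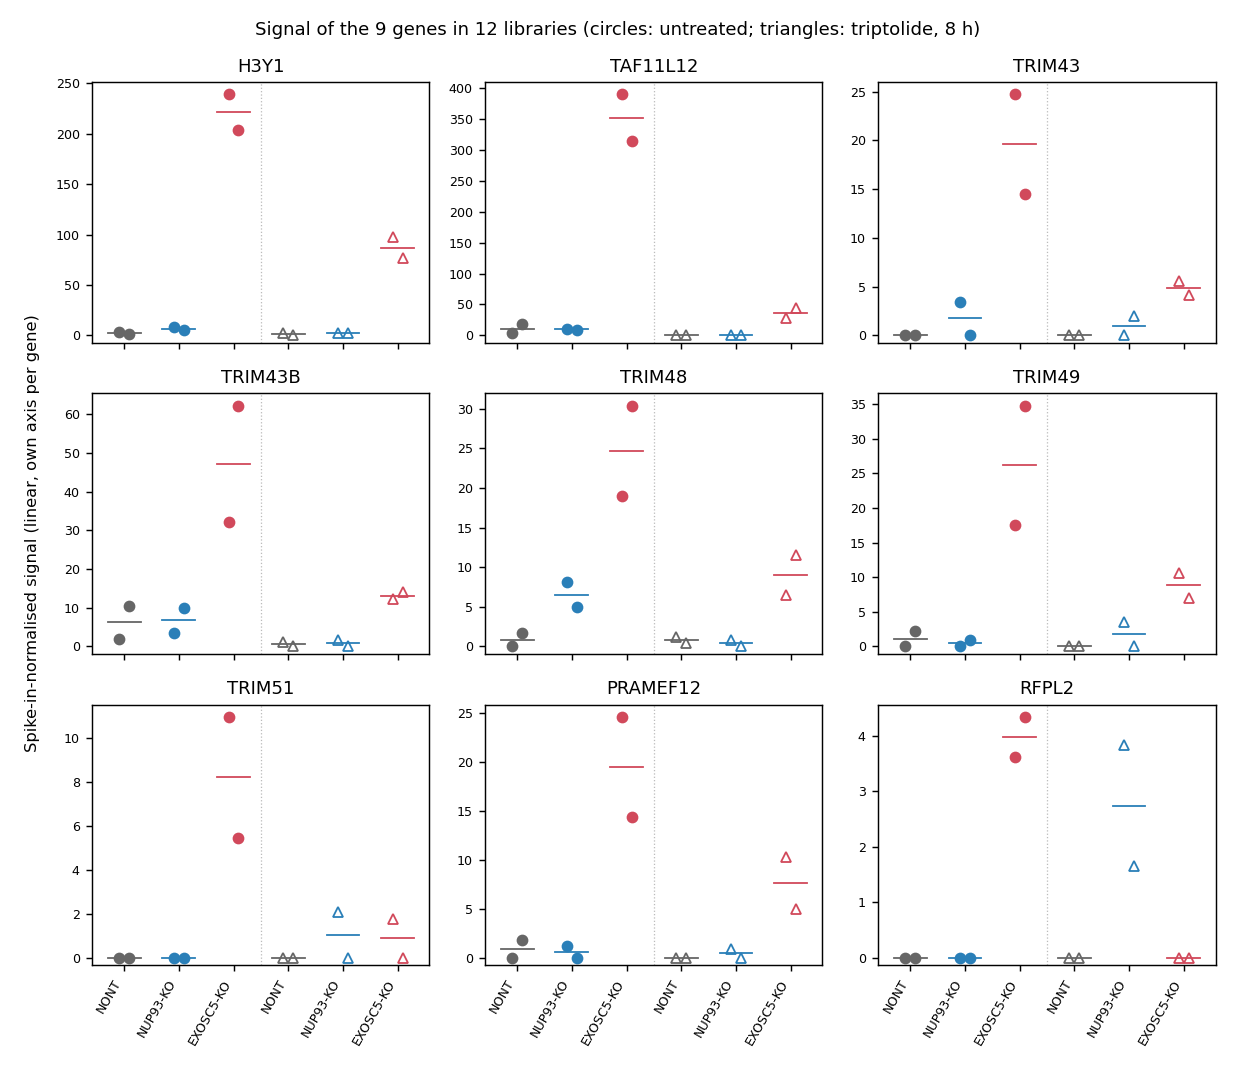
Spike-in-normalised signal (y axis, linear, its own range for each gene) of the 9 genes in the 12 libraries, by genotype. Points are libraries (circles untreated, triangles triptolide) and bars the mean of 2; for H3Y1 the untreated EXOSC5-KO libraries sit at 239 and 203 and the treated ones at 97.5 and 76.6, and the other 8 at or under 8.10.

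The test of the set was whether treated EXOSC5-KO libraries still differed from the treated libraries of the other genotypes. Values were tested as log2(signal + 1) with limma over all genes with an untreated mean of at least 10, and H3Y1, TAF11L12, TRIM43B and TRIM48 entered this fit. H3Y1, TRIM43B and TRIM48 passed the filter only through their high values in untreated EXOSC5-KO, and TRIM48 no longer entered when the mean was taken over all 12 libraries. Against NONT, H3Y1 was higher by 5.42 ± 0.61 (SE) on the log2 scale, with a limma adjusted p of 7.22e-05. TAF11L12, listed at 0 in treated NONT, was also called, with a limma adjusted p of 0.000249, and no fold is given against a group at 0. TRIM43B was higher by 3.24 ± 0.89 (SE) on the log2 scale (limma adjusted p = 0.0128) and TRIM48 by 2.43 ± 0.88 (SE, limma adjusted p = 0.0386). In this comparison 39.2% of the genes tested were called higher, so being called is not particular to the set. With no filter, where 23.1% of genes were called higher, the limma adjusted p-values were 0.000679 for H3Y1, 0.00163 for TAF11L12, 0.0206 for TRIM43B and 0.0266 for TRIM48.

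The size of the difference sets the scale of that background. The median gene was 0.65 higher in treated EXOSC5-KO than in treated NONT on the log2 scale, with 5417 genes called higher and 27 lower. With libraries rescaled by median of ratios these counts were 920 and 1069, with equal totals 1230 and 586, and with equal mitochondrial mRNA 227 and 536. Relative to the median gene, H3Y1 was higher by 4.77 to 5.22 over the 4 scalings, and H3Y1 and TAF11L12 were called under every alternative tried. TRIM43B was higher by 2.60 to 3.31 relative to the median gene and TRIM48 by 1.78 to 2.23. The TRIM43B call was lost with equal mitochondrial mRNA (limma adjusted p = 0.0730), without the second treated NONT library (0.118) and without either treated EXOSC5-KO library (0.0549 and 0.0649). The TRIM48 call was lost under 10 alternatives, with limma adjusted p-values of 0.0502 to 0.215: the 3 other scalings, a pseudocount of 0.5, and leaving out any one treated NONT, treated EXOSC5-KO or untreated EXOSC5-KO library. In approximate reads, treated EXOSC5-KO held 197 for H3Y1 against 4 in treated NONT, a ratio of 79.9 per unit of spike-in with an exact 95% counting interval of 30.7 to 296. TRIM43B rested on 30 against 2 reads (ratio 24.3, exact 95% interval 6.17 to 210.2) and TRIM48 on 21 against 3 (ratio 11.4, 3.39 to 59.5). These intervals cover counting error only.

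Compared with NUP93-KO, where the median gene differed by only −0.03, calls were rarer. H3Y1 was higher in treated EXOSC5-KO by 4.74 ± 0.61 (SE) on the log2 scale (limma adjusted p = 0.00122), and TAF11L12, at 0 in treated NUP93-KO, was called with a limma adjusted p of 0.00146. Only 0.594% of the genes tested, 82 in number, were called higher in this comparison, and 28 were called lower. The split was 493 higher and 533 lower by median of ratios, 652 and 286 with equal totals and 90 and 307 with equal mitochondrial mRNA. Both genes kept their call in each of these scalings and with no filter (limma adjusted p = 0.00756 for H3Y1 and 0.00795 for TAF11L12). They lost it when the fit held only the 4 libraries compared, with limma adjusted p-values of 0.0555 for H3Y1 and 0.0706 for TAF11L12. TRIM43B and TRIM48 had log2 differences of 3.08 ± 0.89 (SE) and 2.83 ± 0.88 (SE) and did not pass, with limma adjusted p-values of 0.140 and 0.185. For TRIM48 the adjusted p was 0.0341 by median of ratios and 0.0358 with equal totals.

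The remaining 5 genes were tested in a limma fit with no filter on low values, over 19002 genes. Against treated NONT, where each of them was listed at 0, PRAMEF12 (adjusted p = 0.0127), TRIM49 (0.0176) and TRIM43 (0.0319) were called higher in EXOSC5-KO by limma, and TRIM51 (0.434) and RFPL2 (1) were not. In that comparison 23.1% of all genes in the fit were called higher. Against treated NUP93-KO none of the 5 passed in limma, with adjusted p-values from 0.169 for RFPL2, where NUP93-KO was the higher, to 1 for TRIM51. There 0.195% of genes were called higher. At an unadjusted p under 0.05, limma called PRAMEF12, TRIM49 and TRIM43 higher in EXOSC5-KO and RFPL2 lower, as it did 5.66% (higher) and 3.55% (lower) of all genes in that fit. By plain order, both treated EXOSC5-KO libraries were above the other 4 treated libraries for 7 of the 9 genes, TRIM51 and RFPL2 being the exceptions, and for 17.3% of all genes above 0 in any library.

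The other knockout, NUP93-KO, was compared with NONT in the same way. None of the 4 genes in the filtered fit was called. Under triptolide, the log2 difference was 0.68 ± 0.61 (SE) for H3Y1 (limma adjusted p = 0.351), 0.16 ± 0.89 (SE) for TRIM43B (0.889) and −0.40 ± 0.88 (SE) for TRIM48 (0.707), and TAF11L12 was listed at 0 in both. The NUP93-KO libraries were not low in general, since 41.9% of the genes tested were called higher than in NONT and 26 genes were called lower. That split was 483 and 367 by median of ratios, 517 and 330 with equal totals, and 120 and 21 with equal mitochondrial mRNA. In the fit with no filter, where 24.7% of genes were called higher, RFPL2 was called (limma adjusted p = 0.0203) on about 4.37 and 1.65 reads in NUP93-KO. The 3 comparisons share libraries and are not independent of each other.

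All 9 genes had less spike-in-normalised signal in treated than in untreated EXOSC5-KO, in every pairing of libraries. The change from untreated to treated EXOSC5-KO uses the libraries that chose the set and is given without a test. The median gene kept 47.2% of its signal there, and its log2 change was −1.08. Among all genes tested the upper quartile of that change was −0.535, so a fall was not particular to the set. How many of all genes fell in every pairing was not counted. H3Y1 kept 39.4% (32.1% to 47.9% when each treated library was divided by each untreated one, 4 pairings in all), PRAMEF12 39.0% (20.03% to 71.3%), TRIM48 36.6% (21.6% to 60.8%) and TRIM49 33.8% (20.2% to 60.9%). For these 4 genes the pairings spanned the value of the median gene. TRIM43B kept 27.8% (19.6% to 43.7%) and TRIM43 24.8% (16.6% to 38.8%), with every pairing below the median gene. TAF11L12 kept 10.3% (7.19% to 14.1%) and TRIM51 10.7% (0% to 32.4%), and RFPL2 was at 0 after treatment. These shares depend on the spike-in scaling. The log2 change of H3Y1 was −1.34 with it, −0.27 by median of ratios, −0.55 with equal totals and −1.43 with equal mitochondrial mRNA, and that of TAF11L12 was −3.27, −2.20, −2.49 and −3.36. The median gene changed by −1.08, −0.0089, −0.29 and −1.17 in the same scalings. All 9 genes, like the median gene, had changes below 0 in each.

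With the spike-in scaling the log2 change was −1.36 for TRIM48 and −1.70 for TRIM43B. Among the 13811 genes tested, 41.0% lost more than H3Y1, 40.3% more than TRIM48, 31.3% more than TRIM43B and 9.84% more than TAF11L12. H3Y1 therefore sat near the middle of all genes, and TAF11L12 towards the end with the larger losses. Levels were also compared within a library, where the scaling cancels. The signal of TAF11L12 per unit of H3Y1 was 1.63 and 1.54 in the untreated EXOSC5-KO libraries and 0.288 and 0.579 in the treated ones, with no overlap. For TRIM48 per unit of H3Y1, the values of 0.0793 and 0.149 untreated and 0.0672 and 0.1504 treated overlapped, as did those of TRIM43B (0.134 and 0.306, then 0.125 and 0.183). In NONT and NUP93-KO the untreated levels of the set rested on too few reads for a share to be read. TAF11L12 lay between 3.79 and 17.5 in the 4 untreated libraries of these genotypes and at 0 in their 4 treated ones.

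**Figure D3:**
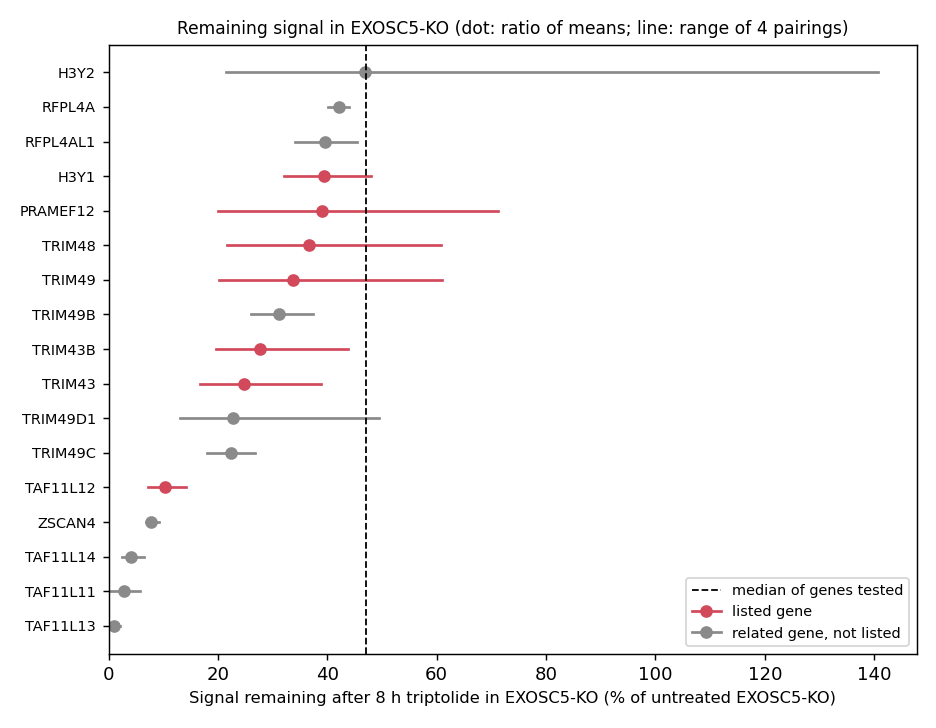
Signal remaining after 8 h of triptolide in EXOSC5-KO, in percent of untreated EXOSC5-KO (x axis), for genes of the set, their relatives and ZSCAN4 with an untreated EXOSC5-KO mean of at least 10. Dots are ratios of group means and lines the range over 4 pairings of libraries; the dashed line is the median of genes tested at 47.2%, and TAF11L12 at 10.3% lies well to the left of H3Y1 at 39.4%.

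Other genes of the same families were examined to see whether the 9 stood alone. The families held 44 further genes in the table, of which 20 were at 0 in every library, and in 11 both untreated EXOSC5-KO libraries lay above the 4 others, which 12.3% of all genes above 0 in any library did. TAF11L13 was at 88.2 and 80.9 in untreated EXOSC5-KO and at 0 to 1.88 in the other untreated libraries, and after triptolide it was at 0 and 1.63 in EXOSC5-KO. TAF11L14 went from 64.9 and 43.5 to 2.80 and 1.64 in the same cells, and was at 0 to 1.74 in the other untreated libraries. These near copies of TAF11L12 kept 0.964% (0% to 2.01%) and 4.09% (2.52% to 6.43%). Their treated values lay under the worth of 3 reads (2.81 and 2.47 units in the treated EXOSC5-KO libraries). That is too few for their shares to be compared with that of TAF11L12. Summed over the 13 TAF11L genes, which removes the question of how reads were divided between copies, the EXOSC5-KO signal went from 578 and 476 to 30.8 and 49.3, or 7.60% (5.34% to 10.4%). The sum of H3Y1 and H3Y2 went from 245 and 225 to 102 and 84.8, or 39.8% (34.6% to 45.4%). The ranges of the H3Y and TAF11L sums over pairings did not overlap, although the genes lie in one cluster.

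In 4 of the 5 TRIM49 genes, TRIM49 included, both untreated EXOSC5-KO libraries were above the others. TRIM49C was at 77.0 and 78.0 in untreated EXOSC5-KO against 0 to 4.62 in the other untreated libraries, and TRIM49B at 68.4 and 54.97 against 0 to 5.78. After triptolide TRIM49C was at 14.03 and 20.6 in EXOSC5-KO and at 0 to 1.75 elsewhere, and limma called it higher than in NONT (adjusted p = 0.00463) but not than in NUP93-KO (0.108). TRIM49C passed the filter only through untreated EXOSC5-KO, and with no filter its adjusted p-values in limma were 0.00783 and 0.138. The 5 TRIM49 genes together went from 231 and 192 to 54.6 and 57.1 in EXOSC5-KO, keeping 26.4% (23.6% to 29.7%). The 22 PRAMEF genes summed to 39.5 and 28.9 in untreated EXOSC5-KO. PRAMEF12 alone gave 24.7 and 14.4 of these. The PRAMEF sum was at most 1.89 in the other untreated libraries and kept 33.7% (22.9% to 48.5%) in EXOSC5-KO. RFPL4A and RFPL4AL1 differed from the other relatives. RFPL4A was at 1226 to 1984 in untreated NONT and NUP93-KO and at 2045 and 1910.1 in EXOSC5-KO, so it was abundant in every genotype although its promoter window holds the motif. RFPL4AL1 was at 481 to 912 and at 973 and 1044. The pair kept 41.2% of its signal under triptolide in EXOSC5-KO.

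**Figure D4:**
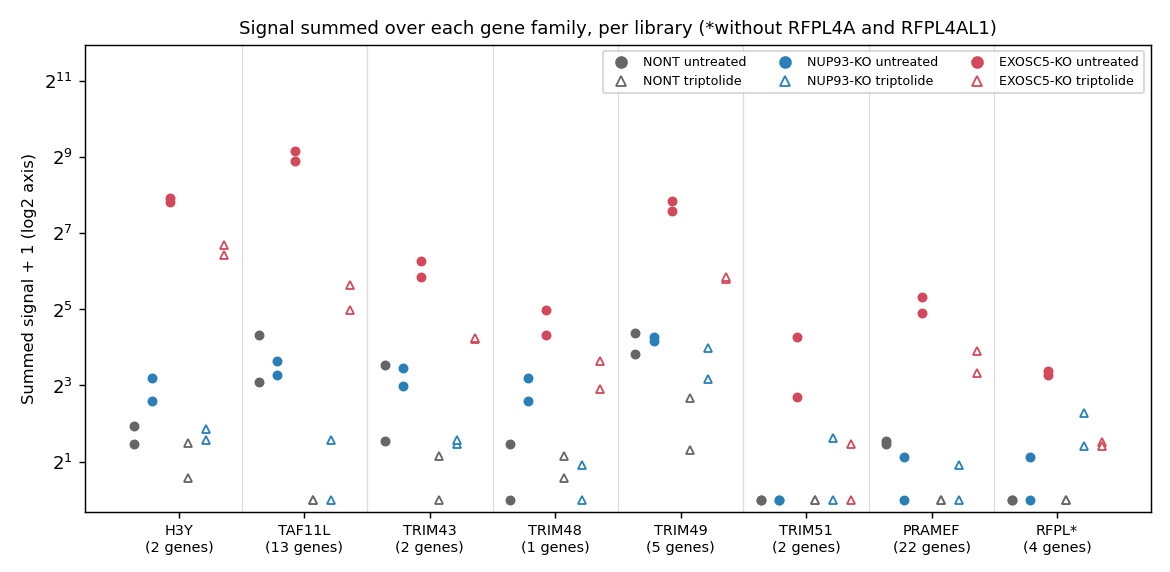
Signal summed over each gene family (x axis, number of genes in brackets) in the 12 libraries, as sum + 1 on a log2 axis; filled circles are untreated and open triangles treated libraries. Untreated EXOSC5-KO libraries are the highest in each family shown, from 578 and 476 for TAF11L to 9.41 and 8.67 for RFPL without RFPL4A and RFPL4AL1.

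A wider list of genes of the DUX4 program and of the cleavage-stage embryo was examined next, with the 9 genes of the set left out of it. Of its 26 genes, 24 were in the table, 5 were at 0 in every library and 7 reached a signal of 10 in at least 1 library. In 3 of the 24, ZSCAN4, H3Y2 and RFPL4B, both untreated EXOSC5-KO libraries lay above the others. RFPL4B was named after its values were seen. The share among all genes above 0 in any library was 12.3%. That base leaves out genes at 0 throughout, while the 24 include 5 of them, so no excess is read from these shares. ZSCAN4, a zinc finger factor known for its burst in early embryos, was at 71.2 and 96.9 in untreated EXOSC5-KO and at 1.16 to 5.27 in the other untreated libraries. Its treated values were 6.55 and 6.59 in EXOSC5-KO against 0.489 to 1.75 elsewhere, so it kept 7.82% (6.77% to 9.25%), a range that overlapped that of TAF11L12 and lay below that of H3Y1. Limma called treated ZSCAN4 higher than in NONT (2.29 ± 0.80 SE on the log2 scale, adjusted p = 0.0343) and not than in NUP93-KO (adjusted p = 0.467). It too passed the filter only through untreated EXOSC5-KO, and with no filter its limma adjusted p-values were 0.0298 and 0.439. H3Y2, a close copy of H3Y1 at the other end of the cluster, was at 5.82 and 21.6 in untreated and 4.66 and 8.19 in treated EXOSC5-KO, and at 0 in all libraries of the other genotypes.

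KHDC1 was at 174 and 195 in untreated EXOSC5-KO and at 108 to 222 in the other untreated libraries, so its ranges overlapped. ZNF280A (14.5 and 18.8 against 5.70 to 22.5) and ZNF296 (62.6 and 39.1 against 29.4 to 51.2) overlapped too. ARGFX, a homeobox gene of the early embryo, was at 11.6 and 5.77 against 1.25 to 8.09. DUX4 itself, which lies in a repeat array and is hard to quantify, was at 0 in all 4 EXOSC5-KO libraries and at 0 to 2.74 in the others. DUXA and LEUTX, homeobox genes of the same stage, were at 0 throughout. Of 15 markers of pluripotent cells and oocytes, 3 (POU5F1, ZFP42 and TDGF1, named after their values were seen) lay above the other untreated libraries in EXOSC5-KO, at signals up to 7.36, and 1 (LIN28A) lay below. The all-gene share for lying above was 12.3%, over genes above 0 in any library, while 4 of the 15 were at 0 throughout. The list as a whole summed to 152 and 136 in untreated EXOSC5-KO and to 109 to 174 in the other untreated libraries.

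Genes outside the set with the most similar pattern over the 12 libraries were sought by Pearson correlation of log2 values, each centred on the library median, with the mean of the set. Since the set was chosen on the untreated libraries, the likeness is a description, and the libraries share depth and spike-in. Of 13807 genes ranked, PCSK5, a proprotein convertase, was the most alike (r = 0.956), followed by POTEF (0.949), LIFR (0.944), MAPK10 (0.943) and PIGL (0.939). TRIM49C was the only relative among the 10 most alike (0.925). PCSK5 was at 4228 and 4314 in untreated EXOSC5-KO and at 330.4 to 674 in the other untreated libraries. The ranking used the treated libraries as well, so no test of PCSK5 in them is given. After triptolide its signal was 2306 and 2122 against 149 to 401. Unlike the genes of the set, PCSK5 thus had a clear signal in every genotype.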

How the data were processed

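Polyadenylated RNA of U2OS cells was sequenced in 12 libraries (6 groups of 2), with ERCC spike-ins added per cell after lysis. The labels do not say whether replicates were separate cultures, so p-values measure the spread between these samples, which may be technical. The authors pseudoaligned the reads with kallisto 0.46.1, summed them per gene with tximport and divided by DESeq2 size factors from the ERCC transcripts alone. The deposited values are thus a spike-in-normalised signal per gene and not counts, and an error in cell number or spike-in volume moves a whole library.

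Steps made here were as follows. The 92 ERCC rows were set aside, and 19584 of 22379 genes were matched to symbols of the GENCODE annotation of GRCh38. The worth of 1 read was taken from the spacing of low values. Since only 27.7% to 32.4% of low values were whole multiples of it (tolerance 0.03 reads), the values as a whole could not be turned back into whole reads. Models for counts were left out of the tests. For the counting intervals alone, approximate reads of H3Y1, TRIM43B and TRIM48 were summed per treated group and rounded to whole reads. Reads of near-identical copies were divided by kallisto and are uncertain. Log2(signal + 1) was fitted with limma 3.58.1 in R 4.3.3 (6 group means, 12 libraries, trend) for 13811 genes with an untreated mean of at least 10, with two-sided tests and Benjamini-Hochberg adjustment at 0.05. A fold change on this scale understates that of low genes. Exact counting intervals were from SciPy 1.17.1, and figures and summaries from Python 3.11.15, pandas 2.3.3, numpy 2.4.6 and matplotlib 3.10.9.

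Named were all 9 genes, EXOSC5, up to 6 relatives with the highest mean in untreated EXOSC5-KO, genes of the DUX4 and cleavage list that reached 10 in a library, and the 10 genes most alike in pattern. The set and the lists were chosen with earlier results of these data known. Same-numbered replicates did not deviate together (correlations −0.05 to 0.04 between groups), so numbers were not treated as pairs. Alternatives were 3 other scalings, pseudocounts of 0.5 and 5, other filters, limma without trend, only the libraries compared, a replicate block and leaving out each library.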

Additional observations from a re-analysis of the deposited data

Results flagged for a closer look

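RFPL2 moved in opposite directions under triptolide in the knockouts. Its log2 change from untreated to treated was 1.84 in NUP93-KO, where both untreated libraries were at 0 and the treated ones at 3.82 and 1.64, and −2.31 in EXOSC5-KO, where the untreated libraries were at 3.61 and 4.34 and the treated ones at 0. All 4 values above 0 rest on about 1.65 to 4.37 reads, and the difference between the responses was not tested.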

How the results depend on the processing

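The calls of H3Y1 and TAF11L12 against treated NONT held under all 22 alternatives, and those against treated NUP93-KO under 21 of 22. The count of genes called higher in EXOSC5-KO than in NONT was 5417 and became 920 by median of ratios, 1230 with equal totals, 227 with equal mitochondrial mRNA, and 1240 to 7123 on leaving out 1 library (1240 without the second treated NONT library, 1983 and 2037 without a treated EXOSC5-KO one). Against NUP93-KO, 82 became 493 by median of ratios, 652 with equal totals, 37 without the filter, 15 with only the 4 libraries compared, and 39 to 127 on leaving out 1 library (39 without either treated EXOSC5-KO one, 126 and 127 without a treated NONT one). For NUP93-KO against NONT, 5788 became 483, 517 and 120 in the 3 scalings, 3727 without the trend, 3730 with only the 4 libraries compared, and 733 to 7333 on leaving out 1 library (733 again without the second treated NONT library, 2643 and 1089 without a treated NUP93-KO one). With the replicate number as a block, the counts were 4920, 77 and 5279 and no call of the 4 genes in the filtered fit changed. Between NUP93-KO and NONT the log2 difference of TRIM43B (0.16) was −0.019 with equal mitochondrial mRNA and −0.57 to 0.89 on leaving out 1 library, below 0 without the second treated NONT or the first treated NUP93-KO library. That of TRIM48 (−0.40) was −0.86 to 0.048 on leaving out 1 library, above 0 without the second treated NUP93-KO library. The median log2 change of the 9 genes in EXOSC5-KO was −1.70, and −0.67 by median of ratios, −0.94 with equal totals, −1.15 with a pseudocount of 5 and −1.89 to −1.65 on leaving out 1 library. The causes were not tested. Values under 1.47 to 5.27 units, the worth of 3 reads in a library, rest on too few reads to be compared.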
